A study of Mus musculus with 42 samples.

Results

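Of 42 single retinal progenitor cells (RPCs) of the mouse, 15 held the transcripts of all 3 of Cdc20, Aurkb and Ube2c, genes that act in mitosis, and 17 lacked at least 2 of them. These 3 genes alone chose the cells. A cell was placed in the mitotic group when each of the 3 had a signal of 1000 or more, the level that the study took as background, and in the other group when at least 2 of them were under 1000. The remaining 10 cells had exactly 2 of the 3 genes and were left out of the comparison. A gene with a signal of 1000 or more in a cell is called present there. The names mitotic cells and other cells stand for this rule only, since the phase of a cell was not measured by other means.

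The cells came from retinas of CD-1 mice, an outbred strain, for which the labels give no engineered allele and no treatment. They were picked at random from dissociated tissue, assigned to classes afterwards from their profiles, amplified by 35 cycles of PCR and measured on 1 Affymetrix mouse 430 2.0 array each. At E12.5 there were 5 mitotic and 5 other cells, at E13.5 there were 1 and 2, at E14.5 1 and 1, at E15.5 0 and 1, at E16.5 1 and 5, and at P0, the day of birth, 7 and 3. The labels name no animal or litter, so cells are not replicates and no p-value is given. The mitotic cells had 2001 to 4828 genes present, with a median of 3062, and the other cells 1674 to 5253, with a median of 2915. Of 5 arrays from E16.5 whose hybridization controls departed from the pattern of the remaining 37, 1 was a mitotic cell (E8) and 2 were other cells (F1 and J4). Of the 6 cells that the study called transitional, between RPC and neuron, 1 was a mitotic cell (P0 C5) and 3 were other cells. The array of E13.5 cell A6, an other cell, had a median hybridization control signal of 311477, against a median of 47293 over the mitotic cells and 59971 over the other cells.

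An RPC divides at the surface of the retina next to the pigment epithelium, and copies its DNA farther away from it. To enter mitosis, a cell makes cyclins, kinases and spindle proteins late in its cycle. Aurora B, encoded by Aurkb, is the kinase of the chromosomal passenger complex, which corrects the attachment of chromosomes to the spindle. Cdc20 activates the anaphase promoting complex, a ubiquitin ligase, and Ube2c supplies ubiquitin to it, so that securin and the cyclins are destroyed and the chromosomes part. Many of these transcripts and proteins are lost again when the cell divides.

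By the rule, Cdc20 was present in all 15 mitotic cells and in 3 of the other cells, Aurkb in 15 and 1, and Ube2c in 15 and 3. In mitotic cells, Cdc20 had signals of 1321 to 19414 with a median of 9036, against 76.7 to 9687 with a median of 209 in other cells. Aurkb ranged from 2031 to 36882 in mitotic cells, with a median of 7141, and from 6.80 to 1915 in other cells, with a median of 62.1. Aurkb was the gene of the 3 whose signals did not overlap between the groups. Ube2c ranged from 3667 to 60324 in mitotic cells, with a median of 15844, and from 10.1 to 11073 in other cells, with a median of 193.

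The limit of 1000 passed through few near values. Just inside lay Cdc20 in E12.5 cell G2, a mitotic cell, at 1321, and in E16.5 cell E5, a left-out cell, at 1315. Just outside lay Cdc20 in P0 cell F3 at 992, which kept this cell out of the mitotic group. For Aurkb, the nearest values were 1915 in E16.5 cell F4 and 978 in E16.5 cell F1, both other cells. For Ube2c, they were 1102 in P0 cell E6, a left-out cell, and 594 in E13.5 cell A6, an other cell. Of the other cells, 10 had none of the 3 genes and 7 had 1 of them.

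**Figure D1:**
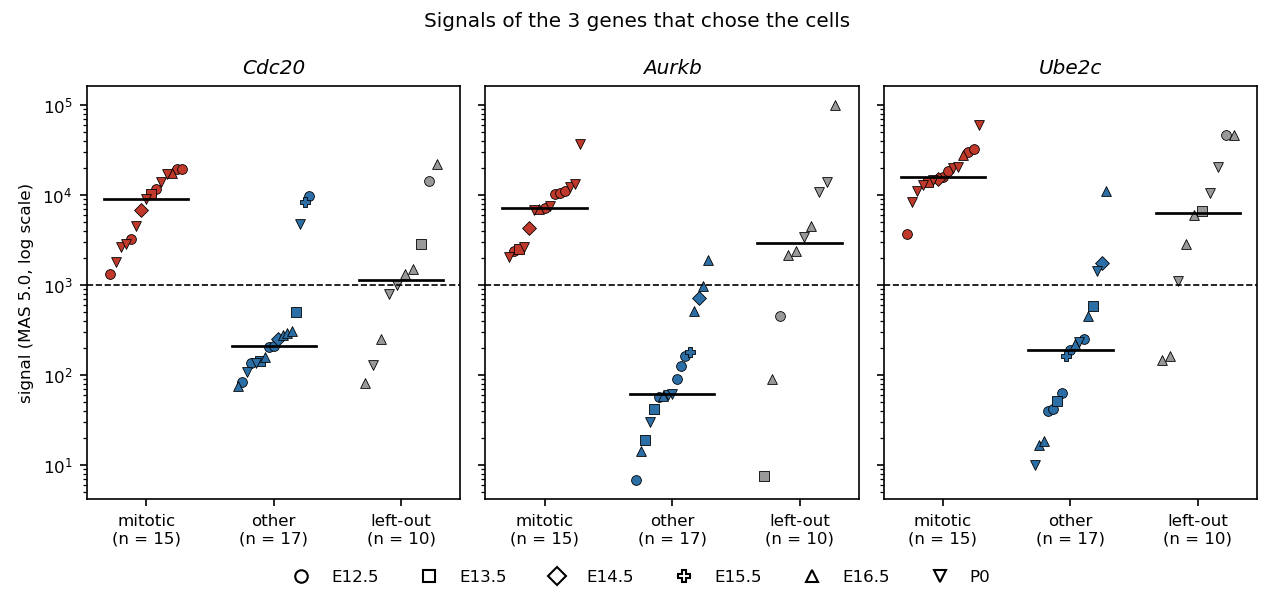
Signal of Cdc20, Aurkb and Ube2c in each cell (MAS 5.0 signal, log axis) for the 15 mitotic, 17 other and 10 left-out cells. Each symbol is 1 cell with its shape giving the stage, the short bars are medians, and the dashed line is the limit of 1000. By the rule, every mitotic cell lies above the line in all 3 panels.

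For every other gene, signals under 1000 were set to 1000 and the difference in mean log2 signal, mitotic minus other cells, was computed with allowance for the stage and for the number of genes present in the cell. The question was which genes accompany Cdc20, Aurkb and Ube2c in single RPCs. The study had already listed genes associated with these same 3 genes and scored its cells by them for G2/M, the phases before and in mitosis. Its scores were not compared here. Of 12817 genes that were present in at least 1 of these 32 cells, 24 were at least 4-fold higher in mitotic cells (0.187% of the genes compared) and 0 were at least 4-fold lower. The median difference over all genes was -0.02 on the log2 scale, and 41.2% of genes lay above 0. Of the 24, 21 were members of the 6 lists of mitotic genes, and the remaining 3 were Rangap1, Rhno1 and Spin1. A stricter call, with a difference in the share of cells of at least 50 points as well, held 21 genes higher (0.164%) and 0 lower. The 10 genes next under the limit lay between 1.90 and 1.99, and included Cenpf, Ncapg, Mad2l1 and Bub1.

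The chromosomal passenger complex, to which the rule gene Aurkb belongs, was among the genes that differed most. Borealin (Cdca8) had signals of 1487 to 44222 in mitotic cells with a median of 15572, against 62.9 to 31140 with a median of 449 in other cells, and an adjusted log2 difference of 3.17 (9.02-fold). The scaffold of the complex, Incenp, ranged from 4804 to 27845 in mitotic cells, with a median of 13272, and from 72.1 to 11451 in other cells, with a median of 460, a difference of 2.84 (7.17-fold). Survivin (Birc5) had a median of 13397 in mitotic cells and 59.4 in other cells, a difference of 2.83 (7.11-fold). Cdca8 and Incenp were present in all 15 mitotic cells and in 7 other cells each, so their groups overlapped. Birc5 was present in 14 mitotic cells, all but E12.5 cell G2, and in 6 other cells.

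The same list held genes of the midzone, the part of the spindle between the parting chromosomes, and of cytokinesis, the division of the cell body. Kif23, the kinesin of centralspindlin, was present in 14 of 15 mitotic cells (93.3%, exact 95% interval 68.1 to 99.8%) and in 0 of 17 other cells. For this 0, the limit that rests on 3 counts is a share of 17.6%, and the exact upper limit is 19.5%. Kif23 ranged from 458 to 21679 in mitotic cells with a median of 7097, and from 21.3 to 912 in other cells with a median of 76.2, a difference of 2.35. Since every other cell was under 1000, the floor sets the size of this difference, which lay between 1.42 and 4.53 over the alternatives tried. The mitotic cell under the limit was E14.5 cell D7, and its value of 458 lay within the range of the other cells. Of the 24 genes, Kif23 was the one absent from all other cells, and it was present in 5 of the 10 left-out cells. Racgap1, its partner in centralspindlin, had a median of 14420 in mitotic cells and 389 in other cells, and was present in 14 and 7 of them, with a difference of 2.43. Prc1, which bundles the microtubules of the midzone, had a median of 7214 in mitotic cells and 342 in other cells, a difference of 2.10. Arhgap11a, an inactivator of the GTPase RhoA, was present in 13 mitotic and 2 other cells (E16.5 cell F4 and P0 cell B5), with a median of 9149 in mitotic cells and 52.2 in other cells and a difference of 2.50. Of the 19 compared members of the list for the passenger complex and cytokinesis, 7 were at least 4-fold higher, 0 were lower, and 18 lay above 0, with a median of 1.64. Over all genes, 0.187% were at least 4-fold higher and 41.2% lay above 0. Ect2, the exchange factor that centralspindlin recruits, lay at 1.64 and was present in 13 mitotic and 6 other cells.

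Of the genes for entry into mitosis, Cks2, a small subunit bound by the cyclin dependent kinases, had the largest difference of all 12817 genes. It ranged from 3705 to 28909 in mitotic cells, with a median of 13210, and from 35.9 to 35617 in other cells, with a median of 422, a difference of 3.18 (9.09-fold). It was present in every mitotic cell and in 7 other cells, the highest of which was E16.5 cell E3. Pbk, a kinase active in mitosis, had a median of 9639 in mitotic cells and 905 in other cells, a difference of 2.51. Plk1, the polo kinase that acts at centrosomes, kinetochores and midzone, was present in 11 mitotic and 2 other cells and lay at the limit, at 2.00. The kinase Cdk1 itself lay under the limit at 1.53, being present in 14 mitotic and 10 other cells. The cyclins Ccna2 and Ccnb2 lay at 1.79 and 1.11. Of the 28 members of this list, 3 were at least 4-fold higher (0.187% of all genes were), 0 were lower, and the median was 0.93. Foxm1, a transcription factor of mitotic genes, lay at 0.98, and Aurka, the sister kinase of Aurkb at the spindle poles, at 0.80, being present in 6 mitotic and 1 other cell.

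Among kinetochore genes, the plates that bind spindle microtubules to the centromeres, the 2 called genes, Spc25 and Ndc80, encode parts of the same complex. Spc25 ranged from 77.8 to 26103 in mitotic cells with a median of 13277, against 23.9 to 18490 with a median of 445 in other cells, a difference of 2.83. It was present in 13 mitotic cells, all but E12.5 cell G2 and P0 cell C5, and in 5 other cells. Ndc80 had a median of 3875 in mitotic cells and 71.3 in other cells, and was present in 13 and 3, a difference of 2.24. Of the 42 members of the list, 39 lay above 0 (41.2% of all genes did), with a median of 0.63. The checkpoint genes Mad2l1, Bub1, Bub1b and Ttk lay at 1.95, 1.93, 0.80 and 0.63.

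Of the 32 spindle genes, 5 were at least 4-fold higher (0.187% of all genes were) and 0 lower, with a median of 0.60. Nusap1, a binder of spindle microtubules, had a median of 16030 in mitotic cells and 83.3 in other cells, and was present in 14 and 3 of them, a difference of 2.77. Ckap2l, another protein of the spindle, had medians of 8872 and 157 in mitotic and other cells, and its highest value in an other cell was 2645, in E16.5 cell E3, a difference of 2.48. Tpx2, which activates Aurora A on the spindle, lay at 2.39. Aspm, a spindle pole protein whose loss gives a small brain, was present in 11 mitotic and 3 other cells and lay at 2.13, and its 3 values in other cells were 1019, 1043 and 1323, all close to the limit of presence. Kif22, a kinesin on the chromosome arms, lay at 2.05. Kpna2, an importin of spindle factors, lay at 1.32 and was present in 14 mitotic and 11 other cells. Within E12.5 it lay at 1.97 and within P0 at -0.15. By in situ hybridization after a thymidine pulse, the study placed Kpna2 almost wholly in S phase.

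Genes of the list for condensin, cohesin and chromatin were present in 76.4% of gene and cell combinations in mitotic cells and in 52.2% in other cells. Top2a, the topoisomerase that untangles sister chromatids, was present in all 15 mitotic cells, at 11294 to 51046 with a median of 24494, and in 11 other cells, which ranged from 56.2 to 37850 with a median of 3921. The difference was 2.67. Mki67, whose product coats mitotic chromosomes, had a median of 25284 in mitotic cells and 1396 in other cells, and was present in 14 and 10 of them, but the highest value, 81212, was in E16.5 cell F1, an other cell. The difference was 2.58. Smc2, the core of condensin, lay at 2.05, present in 14 mitotic and 3 other cells, while its partner Smc4 lay at 1.58, present in 14 and 11. Of the 30 members of the list, 3 were at least 4-fold higher (0.187% of all genes were), 0 were lower, and the median was 0.76. In the list of the anaphase promoting complex, only Pttg1, the securin that it destroys, passed the limit among 18 members, at 2.29, with 0 lower and a median of 0.46.

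Outside the mitotic lists, 3 genes passed the limit. Rangap1, the activator of the GTPase Ran, which sits at the nuclear pore and in part at kinetochores, was present in all 15 mitotic cells at 2728 to 31568 (median 12417) and in 6 other cells, whose median was 505 and highest value 32545, a difference of 2.49. Rhno1, a partner of the DNA damage clamp of the replication checkpoint, was present in 14 mitotic and 3 other cells, a difference of 2.28. Spin1, a reader of histone methylation, was present in 14 mitotic and 8 other cells and lay at the limit, at 2.00.

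**Figure D2:**
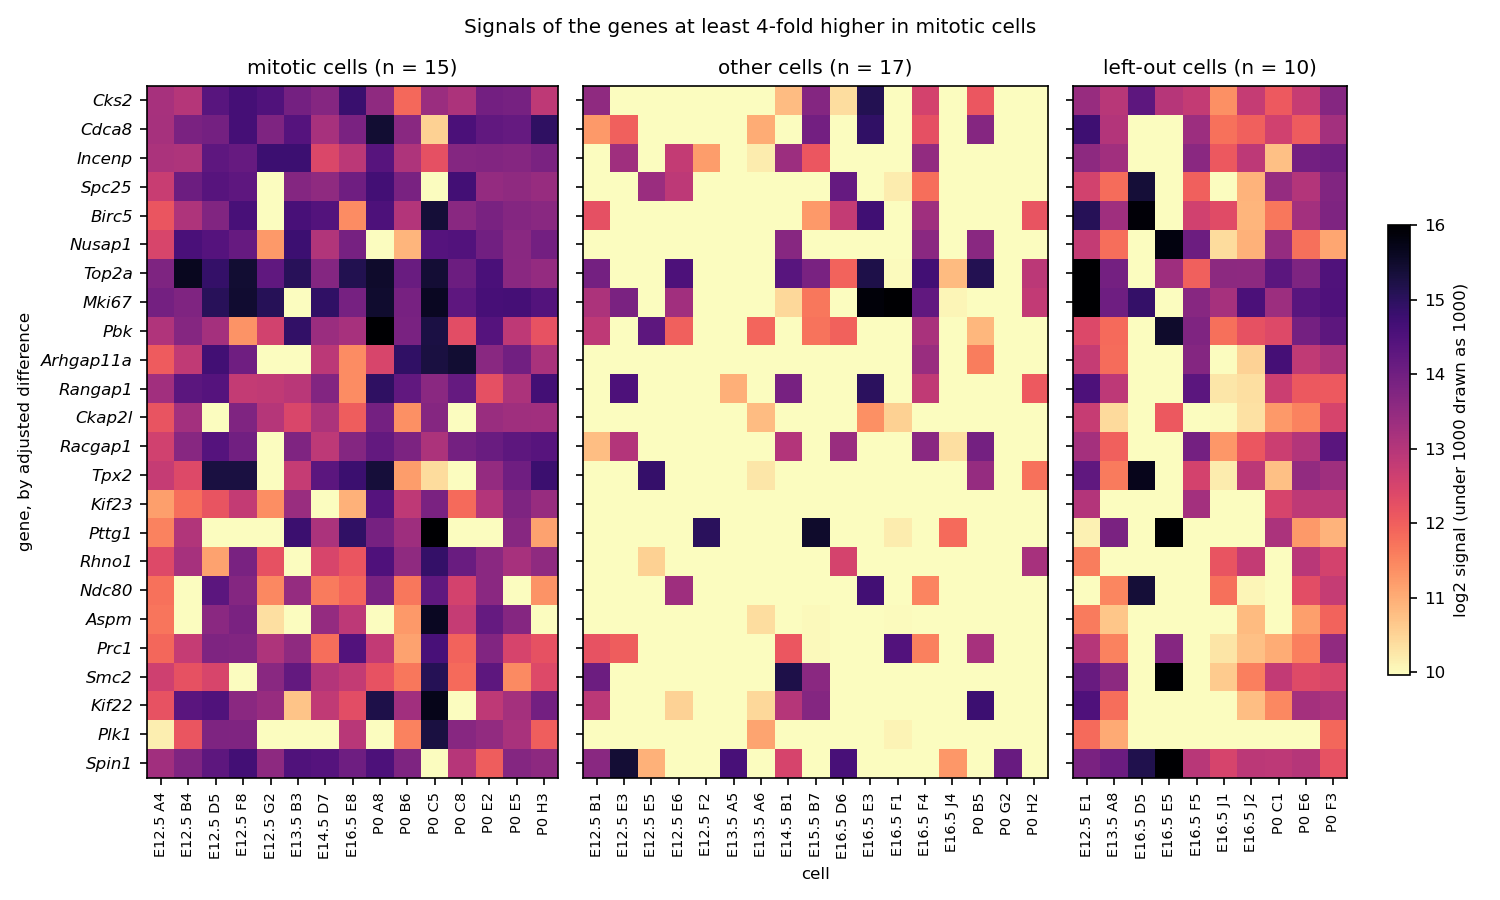
Log2 signal of the 24 genes at least 4-fold higher in mitotic cells (rows, ordered by the adjusted difference) in each of the 15 mitotic, 17 other and 10 left-out cells (columns); signals under 1000 are drawn as 1000 and those above 16 on the log2 scale as 16. Mitotic cells had 17 to 24 of the genes present, other cells 1 to 14 and left-out cells 7 to 24.

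Counted per cell, the 24 genes divided the cells that had chosen them, which is no independent support. Mitotic cells had 17 to 24 of the 24 present, with a median of 22, and other cells 1 to 14, with a median of 8. The lowest mitotic cell was E12.5 cell G2 with 17, which was also the mitotic cell with the lowest Cdc20 signal. The highest other cell was E16.5 cell F4 with 14, which had Aurkb at 1915. Other cells without any of the 3 rule genes had 1 to 11, with a median of 7, and those with 1 of them had 5 to 14, with a median of 10. The 10 left-out cells took no part in the fit, and had 7 to 24, with a median of 20.5. P0 cell F3, kept out of the mitotic group by its Cdc20 signal of 992, had all 24. At the low end were E16.5 cells D5 and E5, both transitional, with 7 and 9, and these 2 cells also had the fewest genes present of the 42, 1386 and 1438.

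The start regions of these genes are shown because the genes were found in the same cells. For 20 of the 24, and for Cdc20 and Ube2c, RefSeq (GRCm38.p6) gave a window from 250 bases before the start of the gene to 50 after it. Incenp, Pbk, Tpx2, Rhno1 and Aurkb had none. The windows were searched on both strands for 2 elements known from genes of the late cell cycle. These were the cell cycle genes homology region, searched as TTTGAA, which reads TTCAAA when it lies on the opposite strand, and the CCAAT box, which reads ATTGG when it does so. Below, each sequence runs 5′ to 3′ on the strand of the gene from 150 bases before its start to 30 after it, and capitals mark every match to either motif. The sequences were taken from the 14 of 22 genes that hold both motifs in this stretch, so each has both by choice. Spc25, Mki67, Arhgap11a, Aspm and Smc2 also hold both and are not shown. In their windows TTTGAA, on either strand, starts at 25 in Spc25, -116 and -98 in Mki67, -99 in Arhgap11a, 7 in Aspm, and -145 and 27 in Smc2. Cdc20 and Ube2c are genes of the rule, Cdca8 a gene of the passenger complex, Kif23, Racgap1 and Prc1 genes of the midzone, Ckap2l and Kif22 spindle genes and Top2a a gene of chromosome structure.
Cdc20: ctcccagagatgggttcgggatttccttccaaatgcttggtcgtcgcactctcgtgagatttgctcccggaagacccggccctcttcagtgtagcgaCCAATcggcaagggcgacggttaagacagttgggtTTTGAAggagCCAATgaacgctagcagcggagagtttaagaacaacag
Ube2c: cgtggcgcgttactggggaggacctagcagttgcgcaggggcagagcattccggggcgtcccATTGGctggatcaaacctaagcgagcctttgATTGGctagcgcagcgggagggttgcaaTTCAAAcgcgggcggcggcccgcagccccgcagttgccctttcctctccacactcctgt
Cdca8: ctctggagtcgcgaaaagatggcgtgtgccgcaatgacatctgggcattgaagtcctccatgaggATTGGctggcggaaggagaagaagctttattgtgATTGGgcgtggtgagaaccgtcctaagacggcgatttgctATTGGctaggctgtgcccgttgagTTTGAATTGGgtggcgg
Kif23: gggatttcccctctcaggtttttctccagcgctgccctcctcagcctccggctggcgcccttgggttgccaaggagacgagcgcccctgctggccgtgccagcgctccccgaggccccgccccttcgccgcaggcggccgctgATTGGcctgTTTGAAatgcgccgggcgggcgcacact
Racgap1: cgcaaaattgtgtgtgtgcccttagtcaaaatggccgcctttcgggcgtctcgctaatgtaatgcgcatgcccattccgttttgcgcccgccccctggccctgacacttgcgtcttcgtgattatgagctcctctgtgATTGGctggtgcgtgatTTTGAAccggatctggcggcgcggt
Prc1: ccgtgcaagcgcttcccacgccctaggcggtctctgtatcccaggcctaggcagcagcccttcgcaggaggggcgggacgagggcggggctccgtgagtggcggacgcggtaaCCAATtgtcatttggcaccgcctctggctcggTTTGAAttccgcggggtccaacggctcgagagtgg
Ckap2l: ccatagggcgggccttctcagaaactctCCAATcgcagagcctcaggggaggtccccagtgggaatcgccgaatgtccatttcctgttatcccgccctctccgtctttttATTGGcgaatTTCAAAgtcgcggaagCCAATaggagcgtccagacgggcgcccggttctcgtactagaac
Kif22: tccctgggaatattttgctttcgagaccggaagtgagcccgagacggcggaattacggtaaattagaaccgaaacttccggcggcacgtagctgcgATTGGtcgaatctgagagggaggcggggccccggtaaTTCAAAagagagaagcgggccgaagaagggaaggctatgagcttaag
Top2a: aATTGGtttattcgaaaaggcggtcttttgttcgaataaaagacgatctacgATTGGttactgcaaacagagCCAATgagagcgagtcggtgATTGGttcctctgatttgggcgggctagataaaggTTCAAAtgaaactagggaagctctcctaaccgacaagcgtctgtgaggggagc
They lie at chr4:118437314-118437493 (minus strand), chr2:164769779-164769958 (plus strand), chr4:124936888-124937067 (minus strand), chr9:61946770-61946949 (minus strand), chr15:99651627-99651806 (minus strand), chr7:80294301-80294480 (plus strand), chr2:129297183-129297362 (minus strand), chr7:127042391-127042570 (minus strand) and chr11:99024160-99024339 (minus strand). In Cdc20, TTTGAA starts at position -18 and the CCAAT boxes at -53 and -8, counted from the start of the gene. In Kif23 they start at 3 and -7, in Racgap1 at 6 and -12, in Prc1 at -5 and -37, and in Kif22 at -17 and -54. In Cdca8, the TTTGAA at 14 and the last ATTGG share 1 base. Such a match is a run of letters and not a shown binding site.

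Over the whole windows, TTTGAA was found in 15 of the 20 genes past the limit (75%), in 50 of 124 further members of the mitosis lists (40.3%), in 7 of 39 genes of the list for DNA replication (17.9%) and in 11.96% of the 10325 compared genes with a window. A CCAAT box was found in 14 of the 20 (70%), in 59.7% of the further members, in 61.5% of the replication genes and in 38.6% of all compared genes. Both were found in 13 of the 20 (65%), against 30.6%, 10.3% and 4.95% in those sets. Over all 27025 windows of the table, TTTGAA was found in 18.1%, a CCAAT box in 37.9% and both in 7.12%. In the windows of Birc5, Nusap1, Pttg1 and Spin1 neither run of letters was matched, which says nothing of their control.

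Genes of DNA replication were not called in either direction, while 0.187% of all genes were called higher and 0 lower. Of the 48 members of this list, 35 lay below 0 (58.8% of all genes did), and the median was -0.26 over all stages, 0.00 within E12.5 and -1.004 within P0. Values within a stage are plain differences of means, with no allowance for the number of genes present. The helicase that unwinds DNA at origins, Mcm2 to Mcm7, had all 6 subunits below 0, with a median of -1.04, and Mcm3 had the lowest difference of all 12817 genes, at -1.90. Mcm3 ranged from 16.9 to 17997 in mitotic cells with a median of 964, and from 69.0 to 32024 in other cells with a median of 4380. It was present in 7 mitotic and 12 other cells, and the groups overlapped over most of their range. Mcm4 and Mcm6 both lay at -1.32, Mcm2 at -0.77, Mcm5 at -0.67 and Mcm7 at -0.48.

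Counted per cell, mitotic cells had 1 to 6 of the 6 subunits present, with a median of 3, and other cells 1 to 6, with a median of 6. At P0, the 3 other cells had all 6, while the 7 mitotic cells had 1 to 6, with a median of 3. At E12.5, mitotic cells had 3 to 6 (median 4) and other cells 4 to 6 (median 6), so that the groups overlapped there. The other cells with few subunits were E13.5 cell A5 and E16.5 cell F1 with 1 each and E13.5 cell A6 with 3. Cells F1 and A6 are transitional cells of the study. Cells A5, F1 and A6 had 3, 3 and 5 genes of the pigment epithelium and lens list present, the highest counts among the other cells. Of the mitotic cells, E14.5 cell D7 had 4 genes of that list and 5 subunits. Whether these markers bear on the count of subunits was not tested.

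Genes that license and fire origins lay on both sides of 0. Cdc6, which loads the helicase, was present in 0 of 15 mitotic cells, for which the limit that rests on 3 counts is a share of 20%. It was present in 4 of 17 other cells, at 1934 to 10374, and in 5 of the 10 left-out cells, with a difference of -0.96. Cdt1, its partner, was present in 6 mitotic and 11 other cells and lay at -0.70. Dbf4, the activator of the kinase that fires origins, lay on the opposite side at 1.99, present in 9 mitotic and 1 other cell. Pcna, the sliding clamp, lay at -0.31, with a median of 27308 in mitotic cells and 31083 in other cells, and Rrm2, a subunit of ribonucleotide reductase, at 0.73, but at -0.70 within E12.5 and at 0.07 to 1.06 with each cell left out in turn. Ccne1 lay at 0.29 and Rassf1 at 0.56.

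Since no gene was 4-fold lower, the 10 lowest are values and not calls. They were Mcm3, Thoc1, Usp14, Eif3e, Fubp1, Blmh, Cdc14b, Urod, Reep1 and Pitrm1, at -1.90 to -1.49. Cdc14b, a phosphatase named after the yeast enzyme of mitotic exit, was the only one of the 10 that no mitotic cell held. It was present in 0 of 15 mitotic cells, with a highest value of 404, and in 8 of 17 other cells (47.1%, exact 95% interval 23.0 to 72.2%). In other cells it ranged from 10.7 to 16240 with a median of 530, and among them it was present at E12.5 in cells B1 (5972), E3 (10205), E5 (15232) and F2 (11036). It was also present in 1 left-out cell, and its difference was -1.63. Usp14, a deubiquitinase of the proteasome, was present in 3 mitotic and 13 other cells, with a median of 229 in mitotic cells and 4169 in other cells, at -1.74. Reep1, a protein that shapes the endoplasmic reticulum, was present in 1 mitotic and 10 other cells, at -1.52. For all 3, the groups overlapped under the limit of presence, where 9 other cells lay for Cdc14b, 4 for Usp14 and 7 for Reep1.

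**Figure D3:**
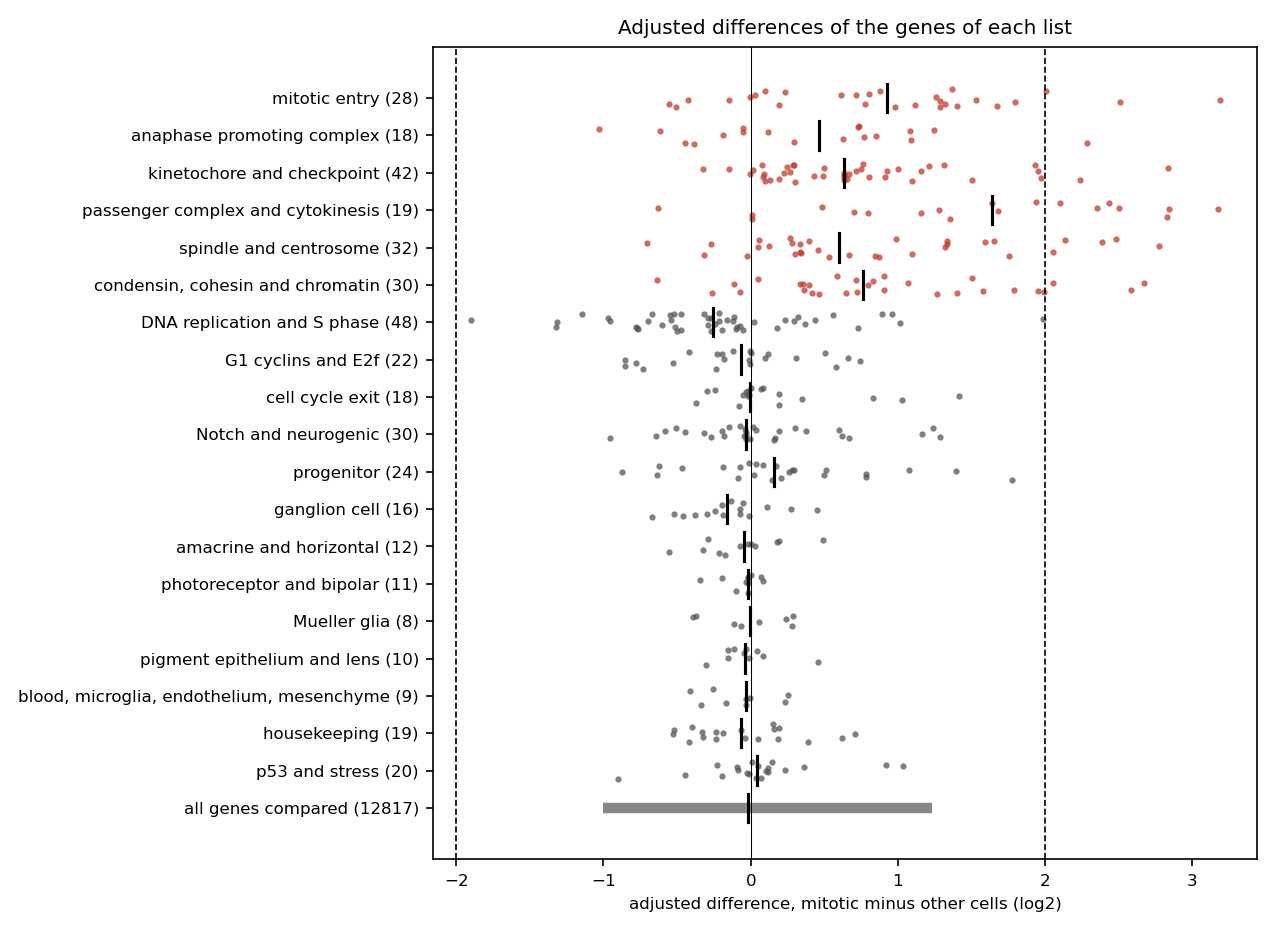
Adjusted log2 difference, mitotic minus other cells, of each compared gene in the 19 lists (1 point a gene, vertical bars the list medians, number of genes in parentheses, red for the 6 mitosis lists). The grey bar spans percentiles 1 to 99 of all 12817 genes, and the dashed lines mark 4-fold. The medians of the mitosis lists lie between 0.46 and 1.64, and those of the remaining lists between -0.26 and 0.16.

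Together, 169 members of the 6 mitosis lists were compared, of which 145 lay above 0 and 24 below, with a median of 0.73, beside -0.02 and 41.2% above 0 over all genes. Present in a cell were 73 to 125 of the mitosis genes in mitotic cells, with a median of 106, 24 to 88 in other cells, with a median of 50, and 27 to 135 in left-out cells, with a median of 98.5. The groups overlapped in the range 73 to 88, which held E16.5 cell F4 with 88, E15.5 cell B7 with 77 and P0 cell B5 with 75 among the other cells. The lists were fixed with earlier results of these data known, and the 3 rule genes are members of them, so that these counts describe the cells and are no test.

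**Figure D4:**
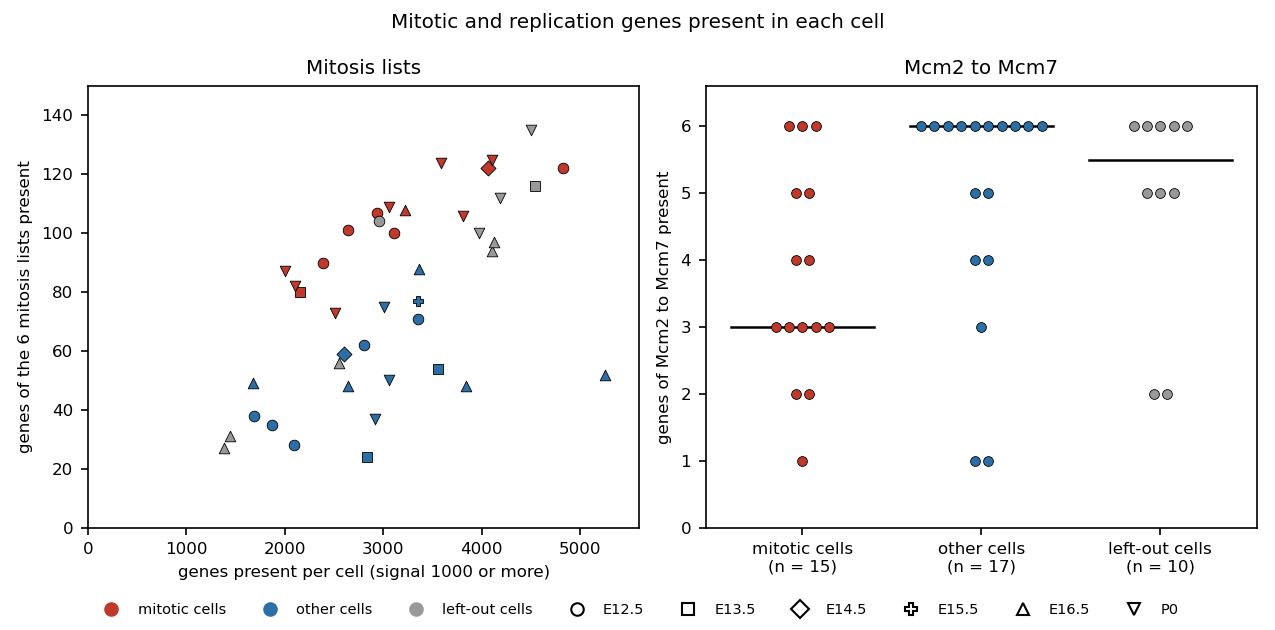
Left, number of genes of the 6 mitosis lists present in a cell against the number of all genes present; right, number of Mcm2 to Mcm7 present, for mitotic, other and left-out cells (1 point a cell, shapes the stages in the left panel, bars the medians in the right panel). At a like number of genes present the mitotic cells lie above the other cells, and the medians of Mcm2 to Mcm7 are 3 in mitotic cells, 6 in other cells and 5.5 in left-out cells.

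The comparison was then made within E12.5 (5 mitotic and 5 other cells) and within P0 (7 and 3), which share no cell. Here the difference is that of plain means, with no allowance for the number of genes present. At E12.5, mitotic cells had a median of 2937 genes present and other cells 2088, and at P0 the medians were 3062 and 3006. The part of this gap in the stage counts was not tested. At E12.5, 105 genes were at least 4-fold higher in mitotic cells (0.819%) and 40 lower (0.312%), and at P0 77 were higher (0.601%) and 97 lower (0.757%). Of these, 16 genes were higher at both stages, 15.2% of those at E12.5 and 20.8% of those at P0. They were Arhgap11a, Birc5, Ccna2, Cdca8, Ckap2l, Cks2, Clic1, Incenp, Mki67, Pdcd10, Pimreg, Plk1, Racgap1, Rangap1, Rhno1 and Ybx1, and 10 of them belonged to the mitosis lists. A single gene, Hells, a chromatin remodeler needed for DNA methylation, was lower at both stages. Hells was present in 1 mitotic cell and in 8 other cells, 3 of them from E12.5 (8663, 5679 and 33995) and 3 from P0 (4394, 5341 and 3122), and lay at -2.14 at E12.5, at -2.06 at P0 and at -1.21 over all stages.

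The 24 genes were called in a fit that included these same E12.5 and P0 cells, so their values within the stages are no independent support. Of the 24, 23 lay above 0 at both stages (17.1% of all genes did), 16 were past 4-fold at E12.5 and 18 at P0. The exception was Pttg1, at -0.08 at E12.5 and 2.62 at P0. Mki67 lay at 2.62 at E12.5 and 3.80 at P0, Kif23 at 1.90 and 3.35, Cks2 at 3.25 and 2.54, and Nusap1 at 3.41 and 1.86. Of the 169 mitosis genes, 105 lay above 0 at both stages (62.1%). The 6 Mcm subunits lay below 0 at both, at -0.28 to -1.54 at E12.5 and at -1.72 to -3.82 at P0. Of all 12817 genes, 1408 lay below 0 at both stages. The 6 belong to the list of 48 replication genes, whose median was -0.0004 at E12.5 and -1.004 at P0. Mcm7 was named after its values were seen, and the P0 values rest on 3 other cells.

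**Figure D5:**
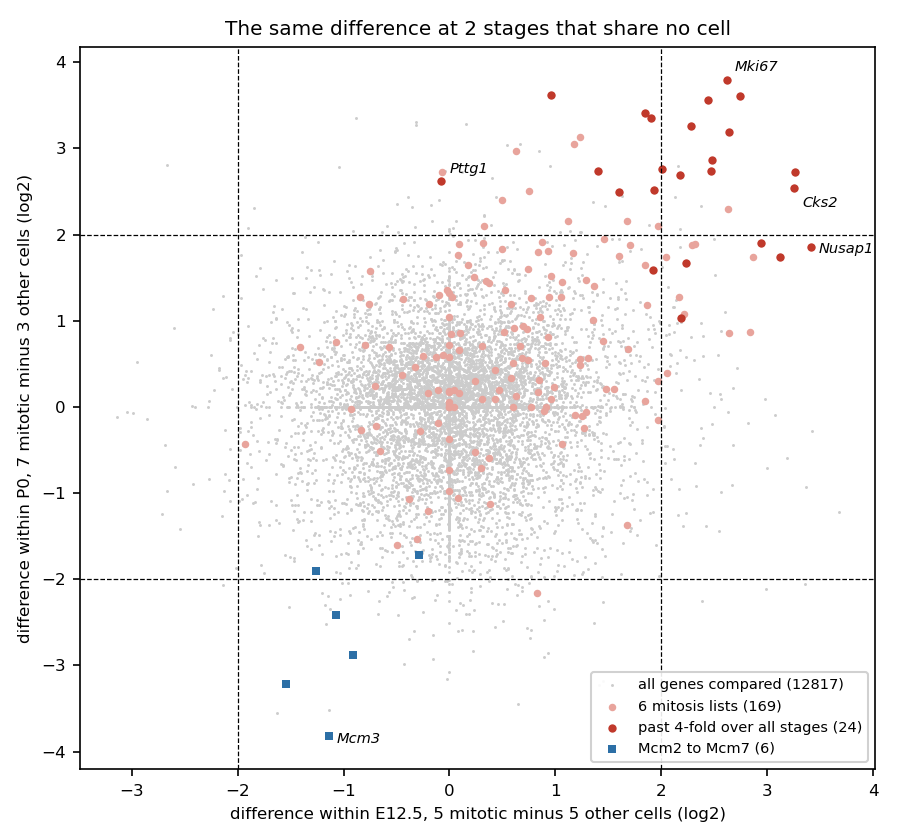
Log2 difference without allowance for genes present, mitotic minus other cells, within E12.5 (horizontal) and within P0 (vertical) for all 12817 compared genes. The 169 mitosis genes, the 24 genes past 4-fold over all stages and Mcm2 to Mcm7 are in colour. The dashed lines mark 4-fold; 23 of the 24 genes lie above 0 on both axes and the 6 Mcm genes below 0 on both.

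Genes of retinal development that the study followed had no member past the limit. Over all genes 0.187% were higher and 0 lower, so a count of 0 says little of a short list. In the list for Notch and neurogenic genes, 0 of 30 passed in either direction and the median was -0.03. Its largest differences were those of Insm1, a zinc finger factor of newborn neurons, at 1.28, Hes6, a relative of the Notch effectors, at 1.24, and Sox4 at 1.16. Hes6 was present in 12 mitotic and 7 other cells, with a median of 7854 in mitotic cells and 775 in other cells, and lay at -0.35 at E12.5 and 2.32 at P0. Sox4 lay at -0.32 and 3.30 at these stages, and whether the stages differ was not tested. Dll1, a Notch ligand, lay at 0.67, Neurod1 at 0.62 and Otx2 at 0.37, and each was present in 3 to 6 mitotic cells and 4 to 7 other cells. Dll1, present in 5 cells of each group, lay at -0.40 at E12.5 and 1.24 at P0. The study reported high Dll1 in several G2/M cells, with P0 cells A8, C8 and H3 as examples. These are mitotic cells here, with Dll1 at 18722, 9927 and 12564.5, and in the remaining mitotic cells of P0 it was under 1000.

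In the list of genes for leaving the cell cycle, 0 of 18 passed (0.187% of all genes did) and the median was 0.00. Cdkn1b, the inhibitor p27 of the cyclin dependent kinases, was present in 12 mitotic cells (80.0%, exact 95% interval 51.9 to 95.7%) and 6 other cells (35.3%, 14.2 to 61.7%), at 196 to 35320 (median 4340) in mitotic cells and 14.3 to 19884 (median 640) in other cells, and lay at 1.41. Btg2, an antiproliferative gene, lay at 1.03, being present in 8 mitotic and 5 other cells. Rhbdl3 lay at 0.35 and Spred1 at 0.00. The study found Rhbdl3 in a subset of its G2/M cells. It was present here in 4 mitotic and 6 other cells, and lay at 0.28 at E12.5 and 1.06 at P0. The mitotic P0 cells A8, C8 and H3 had Rhbdl3 at 19781.6, 19580.5 and 10501.3. Ccnd1, the cyclin of the G1 phase, was present in all 15 mitotic cells at 10508 to 79084 (median 36334) and in 16 other cells (median 36029), and lay at -0.12. In the list of G1 and E2f genes, 0 of 22 passed, the median was -0.07, and the largest differences were those of Rb1 and Cdk2, both at -0.85, and Cdk4 at -0.78.

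As a check of the label, the progenitor list had 8 to 18 genes present in a mitotic cell and 7 to 18 in an other cell, or 61.9% and 58.1% of all gene and cell combinations. Of its 24 members 0 passed (0.187% of all genes did), with a median of 0.16 and the largest difference for the homeobox gene Meis1 at 1.78. Markers of other cells were found in both groups. The ganglion cell list had 0 to 13 genes present in mitotic cells (20.4% of combinations) and 0 to 13 in other cells (23.2%). Of its 16 compared members 13 lay below 0 (58.8% of all genes did), and its median was -0.16. The amacrine and horizontal list had 0 to 4 in mitotic cells (10.0%) and 0 to 6 in other cells (14.2%), and the photoreceptor and bipolar list 0 to 3 (6.06%) and 0 to 5 (9.09%). The Müller glia list had 1 to 6 in mitotic cells (41.7%) and 0 to 6 in other cells (38.2%), and the pigment epithelium and lens list 0 to 4 (4.67%) and 0 to 5 (7.65%). The list for blood, microglia, endothelium and mesenchyme had 0 to 3 in mitotic cells (9.63%) and 0 to 3 in other cells (11.8%), with 9 of 18 of its measured members never at 1000 in these cells. Of these 6 lists 0 genes passed the limit, and their medians lay between -0.16 and -0.01. The housekeeping list had 13 to 17 of 19 genes present in mitotic cells and 10 to 17 in other cells, with a median difference of -0.07, and the list of p53 and stress genes had a median of 0.04, with 0 of both past the limit. The part of these markers in the results was not tested.

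The count of 24 depended on how signals near background were treated. With signals under 2000 set to 2000 it was 8, with 500 in place of 1000 it was 59, and with the left-out cells added to the mitotic group it was 11, while Cks2, Cdca8, Incenp, Spc25, Birc5, Nusap1 and Mki67 passed the limit under all 15 alternatives and with each of the 32 cells left out in turn. Without the 3 arrays whose controls departed, 36 genes were at least 4-fold higher, 21 of the 24 among them, and 5 lower, and without the 4 transitional cells 31 were higher, 21 of the 24 among them, and 0 lower.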

How the data were processed

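Signals of 45101 probe sets on 42 arrays were used as deposited. These deposited intensity values are linear MAS 5.0 signals, which the authors had scaled array by array to a target of 500. With 1 array per cell, the number of arrays limits the precision. Probe sets were named through the platform annotation. Only the 34958 that carry a single gene symbol entered, leaving aside 932 with more symbols and 9211 that the annotation does not list. The value of a gene in a cell was its highest probe set, which gave 18194 genes, and 1000 was taken as the level of presence.

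Cells were grouped by Cdc20, Aurkb and Ube2c, and the 32 grouped cells were fitted by least squares for each gene, on log2 of the signal with values under 1000 set to 1000, with group, stage (6 levels) and log2 of the number of genes present as terms (Python 3.11.15, numpy 2.4.6). E15.5 cell B7, the single fitted cell of its stage, does not bear on the difference. A difference of at least 2 in size (4-fold) was called. Differences within E12.5 and within P0 were plain differences of group means, without these terms. The floor makes differences of weak genes smaller. The fit was tested on simulated data, and no test across cells was made. Shares carry exact (Clopper-Pearson) 95% intervals, and the limit for a share of 0 rests on 3 counts; both cover counting error only.

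The groups, the 19 gene lists (mitotic entry, anaphase promoting complex, kinetochore, passenger complex and cytokinesis, spindle, chromosome structure, DNA replication, G1 and E2f, cell cycle exit, Notch and neurogenic, progenitor, 6 lists of other cell types, housekeeping, p53 and stress) and the limits were chosen with earlier results of these data known. Of the list members, 23 had no value here, Ccnb1 among them. Named were the rule genes, the 20 highest and 10 lowest differences, mitosis genes past the limit, the 3 largest differences of each further list, cell cycle and fate genes that the study names and genes past 4-fold at both E12.5 and P0. Further genes (Mcm7, Smc4, Bub1, Bub1b, Ttk, Foxm1, Aurka, Cdc6, Cdt1 and those next to the limit) were named after their values were seen. Alternatives were the floor, the probe set, the terms of the fit, the limit of the rule, quantile normalization and leaving out cells.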

Additional observations from a re-analysis of the deposited data

Results flagged for a closer look

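In 24 combinations of a group at a stage and a count per cell, 3 cells lay far from the rest of their group, with a gap to the next cell above Dixon's critical value, which chance passes in about 1 group in 20. Cells are not replicates, and the 24 genes were called on these same cells, so this only describes which cells stood away. Among the 5 mitotic cells from E12.5, cell G2 had 17 of the 24 genes past 4-fold present, and the rest had 22 to 24. Spc25, Birc5, Racgap1, Arhgap11a and Plk1 were among those under 1000 in it. Among the 5 other cells from E16.5, cell F4 had 88 of the mitosis genes present, and the rest had 48 to 52. Among the 7 mitotic cells from P0, cell B6 had all 6 of Mcm2 to Mcm7 present, and the rest had 1 to 3. Of the named genes, 0 had groups that lay apart without overlap in opposite directions at E12.5 and P0.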

How the results depend on the processing

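The 24 genes at least 4-fold higher, the 0 lower and the median of 0.73 of the mitosis genes were recomputed under 15 alternatives and without each of the 32 cells. The higher and lower counts were 59 and 7 with a floor at 500, 8 and 0 with a floor at 2000, and 157 and 48 on log2 of the signal plus 100 without a floor. The median of the mitosis genes was 0.45 with the floor at 2000 and 1.45 without a floor. With the left-out cells added to the mitotic group, 11 genes were higher. With quantile normalization the counts were 39 and 1, with E12.5 and P0 cells alone 42 and 6, and without the arrays with departing controls 36 and 5. With the rule at 2000 or at 500, 1 gene was lower in each. The cause of these moves was not tested. Without 1 cell at a time, 21 to 35 genes were higher, 0 to 5 lower, and the median was 0.65 to 0.79. The 35 and the 5 came without E16.5 cell E8, whose controls departed and which was the only mitotic cell of its stage, and 2 genes were lower without E13.5 cell B3 and without E12.5 cell F8. Past the limit, Plk1 stayed in 16 and Spin1 in 14 of these 32 fits, Smc2 and Kif22 in 22 each. No paired analysis was possible because the labels pair no cells. Of the single genes, none that was called turned its direction.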

Other observations

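Among the left-out cells, which held exactly 2 of the 3 rule genes, Cdc20 was missing in 5 of 10, Aurkb in 3 and Ube2c in 2. The highest Aurkb signal of all 42 cells, 100828, was in one of them, E16.5 cell E5, a transitional cell. This cell had 1438 genes present. Its array had a median hybridization control signal of 174534, against a median of 36304 over the left-out cells. The part of this in its Aurkb signal was not tested. In the left-out cells Cks2 and Spin1 were present in all 10, and Plk1 in 3.

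Clic1, Ybx1, Pdcd10 and Hmgn1 reached 4-fold at E12.5, P0 or both without reaching it over all stages. The stage values are plain differences of means, while those over all stages allow for stage and genes present. Clic1, a chloride channel protein, lay at 2.38 at E12.5, 2.33 at P0 and 1.35 over all stages, and its highest value in an other cell was 298265, in E13.5 cell A6. Ybx1, which binds RNA, lay at 2.18, 2.07 and 1.12, being present in 15 mitotic and 13 other cells. Pdcd10, a partner of kinases at the Golgi, lay at 2.13, 2.43 and 1.91. Hmgn1, a nucleosome binding protein of the progenitor list, was present in all 15 mitotic and in 15 other cells, and lay at -0.88 at E12.5 and 3.35 at P0. Fgf15, a growth factor of progenitors, was present in 12 mitotic and 12 other cells and lay at 1.89 at E12.5, 1.04 at P0 and 1.39 over all stages, all under 4-fold. Whether these differences changed between the stages was not tested.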
